A study of Rattus norvegicus with 70 samples.

Results

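Phenobarbital given for 6 weeks as a liver tumour promoter was compared with plain water in the livers of rats that had received no initiating carcinogen. The comparison rests on 10 libraries of the 70 in the series, chosen by their labels: 5 livers from the phenobarbital group and 5 from the water group, all taken at terminal euthanasia. The rats were Crj:CD(SD)IGS, an outbred strain, and were dosed with 0.5% methylcellulose, the vehicle of the initiators. After a withdrawal period they drank water with 500 ppm phenobarbital, or plain water. Every animal had a partial hepatectomy after 1 week of promotion, so both groups are regrown livers, and neither is an untouched liver. The labels describe DNA from separate rats and do not say whether the liver removed at hepatectomy came from the same rats. The sources used here give neither age nor sex.

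Methylated DNA was pulled down with a methyl-CpG-binding protein (MethylMiner kit) and sequenced, and the deposited value of a region is a scaled read number, called signal here. More signal means more methylated fragments, but the value also follows the number of CpG sites in the region, so levels of different genes are not degrees of methylation. In DNA from a whole liver, fewer cells carrying a methylated region and less methylation per cell cannot be told apart. Each region is a window of 5625 bp around a transcript start, and coordinates are those of the files, on a genome build not given in the sources used here.

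Phenobarbital is the classic inducer of drug metabolism in rodent liver. It activates the nuclear receptor CAR (Nr1i3), which with its partner RXR binds enhancers of cytochrome P450 genes, above all those of the Cyp2b family, and the related receptor PXR (Nr1i2) shares many of its targets. Prolonged exposure enlarges the liver and favours the outgrowth of initiated hepatocytes. Methylation of CpG-rich promoters is commonly linked to silencing, whereas CpG-poor promoters of liver genes are often methylated in tissues that do not use them.

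The promoters of 6 of the genes described below are shown because they span the range of CpG content on which pull-down depends. The sequences come from RefSeq on the build GRCr8 and run from 250 bases before to 50 bases after the transcript start, with each CG in capitals. Cyp2b1, the P450 that phenobarbital induces most strongly in rat liver, and Nr1i3 had few CpG sites. In Afg3l1, Ier2, Gm2a and Rhox8 the values of the 2 groups did not overlap.
Cyp2b1 (chr1:90645869-90646168, plus strand): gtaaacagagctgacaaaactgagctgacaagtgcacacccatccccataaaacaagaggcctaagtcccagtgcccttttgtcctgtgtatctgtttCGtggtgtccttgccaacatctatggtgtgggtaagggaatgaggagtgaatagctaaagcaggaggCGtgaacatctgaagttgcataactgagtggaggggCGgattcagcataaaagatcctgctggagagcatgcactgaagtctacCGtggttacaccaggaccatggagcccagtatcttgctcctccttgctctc
Nr1i3 (chr13:86165170-86165469, plus strand): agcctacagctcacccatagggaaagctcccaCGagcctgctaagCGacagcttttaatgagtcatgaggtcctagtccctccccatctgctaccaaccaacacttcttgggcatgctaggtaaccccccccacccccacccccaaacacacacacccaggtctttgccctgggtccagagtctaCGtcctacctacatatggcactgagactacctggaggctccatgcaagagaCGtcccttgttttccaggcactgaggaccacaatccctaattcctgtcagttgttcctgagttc
Afg3l1 (chr19:68416851-68417150, plus strand): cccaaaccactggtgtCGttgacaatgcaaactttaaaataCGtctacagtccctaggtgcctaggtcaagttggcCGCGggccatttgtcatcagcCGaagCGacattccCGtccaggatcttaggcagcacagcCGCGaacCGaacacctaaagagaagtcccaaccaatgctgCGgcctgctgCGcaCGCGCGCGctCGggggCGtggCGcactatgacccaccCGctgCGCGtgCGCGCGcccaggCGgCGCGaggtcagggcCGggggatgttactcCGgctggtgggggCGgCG
Ier2 (chr19:40399123-40399422, plus strand): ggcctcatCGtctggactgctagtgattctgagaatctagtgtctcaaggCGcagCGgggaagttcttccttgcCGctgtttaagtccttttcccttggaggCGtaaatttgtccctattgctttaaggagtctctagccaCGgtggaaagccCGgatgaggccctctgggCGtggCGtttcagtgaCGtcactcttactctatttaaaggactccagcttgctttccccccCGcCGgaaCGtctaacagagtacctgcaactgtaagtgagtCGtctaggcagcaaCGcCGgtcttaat
Gm2a (chr10:39719669-39719968, plus strand): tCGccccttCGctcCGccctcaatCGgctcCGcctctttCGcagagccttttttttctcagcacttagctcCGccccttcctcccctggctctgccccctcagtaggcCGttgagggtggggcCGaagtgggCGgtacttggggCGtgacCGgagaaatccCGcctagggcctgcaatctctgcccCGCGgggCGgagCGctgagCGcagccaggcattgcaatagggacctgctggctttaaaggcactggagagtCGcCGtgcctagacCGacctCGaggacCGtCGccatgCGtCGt
Rhox8 (chrX:121450158-121450457, plus strand): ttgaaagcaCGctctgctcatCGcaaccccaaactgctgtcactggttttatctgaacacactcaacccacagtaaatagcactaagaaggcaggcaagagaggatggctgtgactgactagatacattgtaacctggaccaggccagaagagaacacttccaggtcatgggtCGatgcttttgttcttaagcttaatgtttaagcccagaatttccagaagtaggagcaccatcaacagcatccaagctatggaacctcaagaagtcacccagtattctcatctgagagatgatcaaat

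The promoters of Cyp2b1 and Nr1i3 each held 4 CG pairs, a number that 71.0% of 24206 rat promoters reached or passed. Afg3l1 had 32, which 9.2% reached, Gm2a had 26 (17.2%), Ier2 had 16 (34.6%) and Rhox8 had 3 (79.0%). CG reads the same on both strands, so each pair was counted once. Of the 16008 tested regions, 11327 could be matched to such a promoter. The median signal of regions with 0 to 4 CG pairs was 40.6 in phenobarbital livers and 39.9 in water livers, for 5 to 14 pairs it was 84.2 and 84.4, and for 15 or more it was 54.4 and 52.97. The median log2 difference in these classes was -0.02, -0.03 and 0.02, and without phenobarbital replicate 5 it was 0.02, 0.05 and 0.04.

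One phenobarbital library stood apart from the rest. In phenobarbital replicate 5 only 0.739% of the 17174 regions had no read, against 2.53% to 3.71% in the other 4 phenobarbital livers and 3.05% to 3.89% in the water livers. Only 5.27% of its regions had a signal under 10, against 14.3% to 19.03% and 16.3% to 16.97%, and its 90th percentile of signal was 119, against 178 to 212 and 179.7 to 194. Its reads were thus spread more evenly over regions, and results that rest on it are given with and without it. The regions held 0.933 M reads in that liver, 1.12 M to 1.45 M in the other phenobarbital livers and 1.14 M to 1.36 M in the water livers. In this count 1 read corresponds to a signal of 0.991 to 1.19. Over the 5 against 5 livers no library-level value separated the treatments: region reads averaged 1.22 ± 0.199 M with phenobarbital and 1.24 ± 0.0865 M with water, and an exact two-sided permutation test gave p = 0.802 (adjusted 0.802 over 3 values; the smallest possible p is 0.00794). The share of regions with no read was 2.83 ± 1.27% and 3.49 ± 0.398% (exact permutation p = 0.349, adjusted 0.524). The median signal was 52.7 ± 1.70 and 51.5 ± 1.40 (exact permutation p = 0.27, adjusted 0.524).

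No region passed the test between phenobarbital and water. In limma on log2(signal + 1), 0 of 16008 tested regions had an adjusted p under 0.05 (0.00%). Before adjustment, 507 regions had p under 0.05 (3.17%), of which 341 were higher with phenobarbital (2.13%) and 166 were lower (1.04%). Without phenobarbital replicate 5 these numbers were 419 (2.62%), 249 (1.56%) and 170 (1.06%). The smallest adjusted p was 0.184, at Afg3l1. The unadjusted 95% interval of the median region reached 0.48 on either side of its log2 difference. Differences up to about that size could not be told from 0 in a typical region even before adjustment. After adjustment larger ones could not either: 328 regions had a log2 difference over 1 in size, and none of them passed. A positive log2 difference below means more signal with phenobarbital.

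**Figure D1:**
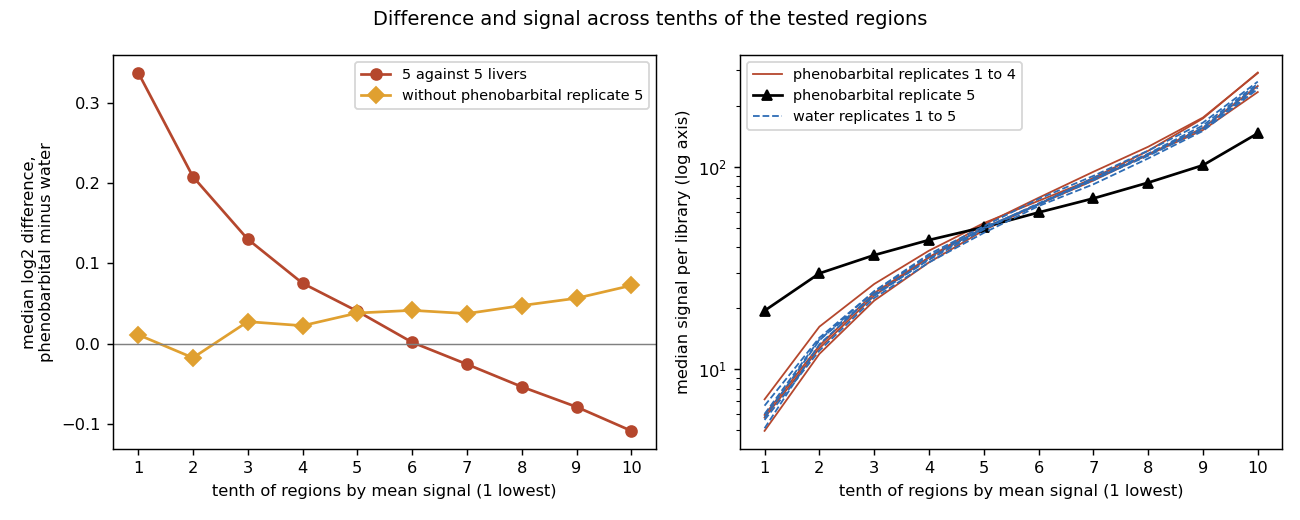
The left panel plots the median log2 difference in signal, phenobarbital minus water, against 10 equal bins of the tested regions ordered by mean signal, with all 10 livers (circles) and without phenobarbital replicate 5 (diamonds). The right panel plots each library's median signal in the same bins on a log axis; phenobarbital replicate 5 (triangles) lies above all other libraries in the lowest bin, at 19.5, and below them in the highest, at 146.

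With all 10 livers the difference ran with the signal of a region. The median log2 difference was 0.34 in the lowest of 10 bins of mean signal and -0.11 in the highest, as the plot across signal bins shows. Without phenobarbital replicate 5 it was 0.01 in the lowest bin and 0.07 in the highest. In the lowest bin the median signal was 4.96 to 7.10 in the other 4 phenobarbital livers and 19.5 in replicate 5, against 5.11 to 6.60 in the water livers. In the highest bin it was 234 to 292 in those 4 livers and 146 in replicate 5, against 243 to 264 in the water livers. The 95% interval of the median region reached 1.31 on either side in the lowest bin and 0.43 in the highest.

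The receptors that sense phenobarbital showed no difference past the test. Nr1i3 (CAR) had a signal of 74.4, 87.97, 94.3, 79.5 and 69.8 in the phenobarbital livers and 85.8, 92.1, 75.1, 79.8 and 77.02 in the water livers, and its log2 difference was -0.02 (95% interval -0.42 to 0.38). The 2 groups overlapped throughout, and this is among the narrowest intervals of the drug-response genes. Nr1i2 (PXR) had 152, 128, 139, 142 and 60.6 with phenobarbital against 171, 138, 177, 150.4 and 129.8 with water, a log2 difference of -0.36 (-0.76 to 0.05). Its low value belongs to phenobarbital replicate 5, and without that liver the difference was -0.12. Rxra, the partner of both receptors, had a difference of -0.21 (-0.66 to 0.24), and -0.12 without it. Ncoa1, a coactivator of nuclear receptors, had 9.91, 28.5, 17.2, 29.97 and 30.9 with phenobarbital against 13.3, 7.86, 15.02, 3.47 and 18.7 with water, a difference of 1.00 ± 0.41 (SE; unadjusted p = 0.0163). Ahr, the receptor for dioxin-like ligands, was at 90.2, 96.3, 102, 106 and 56.1 with phenobarbital against 109, 106, 127, 123 and 129.8 with water (difference -0.42, and -0.26 without replicate 5). Among 32 tested genes of this group 10 had a positive difference, with a median of -0.10. Over all 15434 tested genes 7693 were positive, with a median of 0.00. Without replicate 5 the counts were 15 of 32, with a median of -0.09, and 8827 of 15434, with a median of 0.04. At unadjusted p under 0.05 the group had 1 gene higher, Ncoa1, and 0 lower, a share of 3.12% against 3.17% of all regions.

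Cytochrome P450 genes, which carry out the oxidation that phenobarbital induces, were evenly divided. Of 57 tested genes 29 had a positive difference and 28 a negative one, with a median of 0.00 and a middle range, from the 25th to the 75th percentile, of -0.16 to 0.20. Cyp2b1 had a signal of only 4.96, 2.38, 2.03, 3.46 and 6.87 in phenobarbital livers and 12.3, 5.61, 2.003, 3.47 and 8.80 in water livers. Its log2 difference was -0.49 with an interval of -1.86 to 0.89, which leaves room for a large difference in either direction at so few reads. Cyp2b2, its close paralogue, was below the filter on low values and was not tested. Its signal was 1.98, 0, 3.04, 0 and 9.15 with phenobarbital against 2.04, 0, 6.01, 0 and 0 with water, and reads of this pair may be divided between them by the mapping, since the genes are nearly identical. Cyp3a2, Cyp3a9 and Cyp3a18, also in the family of inducible 3A enzymes, were below the filter too. Cyp3a2 had 0, 0, 1.01, 4.61 and 9.15 with phenobarbital against 1.02, 2.25, 6.01, 3.47 and 1.10 with water, Cyp3a18 had 0 to 2.31 in phenobarbital livers and 0 to 2.25 in water livers, and Cyp3a9 had no read in any of the 10.

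The inducible 3A gene with a testable region, Cyp3a23/3a1, had 22.8, 8.32, 5.07, 38.04 and 48.1 with phenobarbital against 31.7, 14.6, 22.03, 18.5 and 29.7 with water. The spread among phenobarbital livers was wider than the distance between the groups (difference -0.29, interval -1.01 to 0.43, and -0.63 without replicate 5). Cyp2c11, the male-specific P450 of rat liver, had a difference of 0.01 (-0.78 to 0.80), and -0.13 without replicate 5. Cyp1a1 and Cyp1a2, targets of Ahr, had differences of -0.18 (-0.87 to 0.51) and 0.46 (-0.42 to 1.34), and of -0.50 and 0.32 without replicate 5. The P450 with the smallest p was Cyp4f5, a fatty acid hydroxylase, at 34.7, 10.7, 49.7, 28.8 and 33.2 with phenobarbital against 47.99, 52.8, 45.1, 55.5 and 50.6 with water (difference -0.81 ± 0.34; unadjusted p = 0.0198). Phenobarbital replicate 2 was the lowest, and replicate 3 lay inside the water range. Cyp4b1 had a difference of 0.94 and Cyp2g1, known from olfactory tissue, of 0.57, with unadjusted p of 0.0323 and 0.0442. Without replicate 5 their p was 0.0511 and 0.0859. Without phenobarbital replicate 2 the Cyp4f5 difference was -0.48, and without water replicate 1 that of Cyp2g1 was 0.36. Cyp2b3 and Alas1, the enzyme that starts heme synthesis, were not analysed here.

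**Figure D2:**
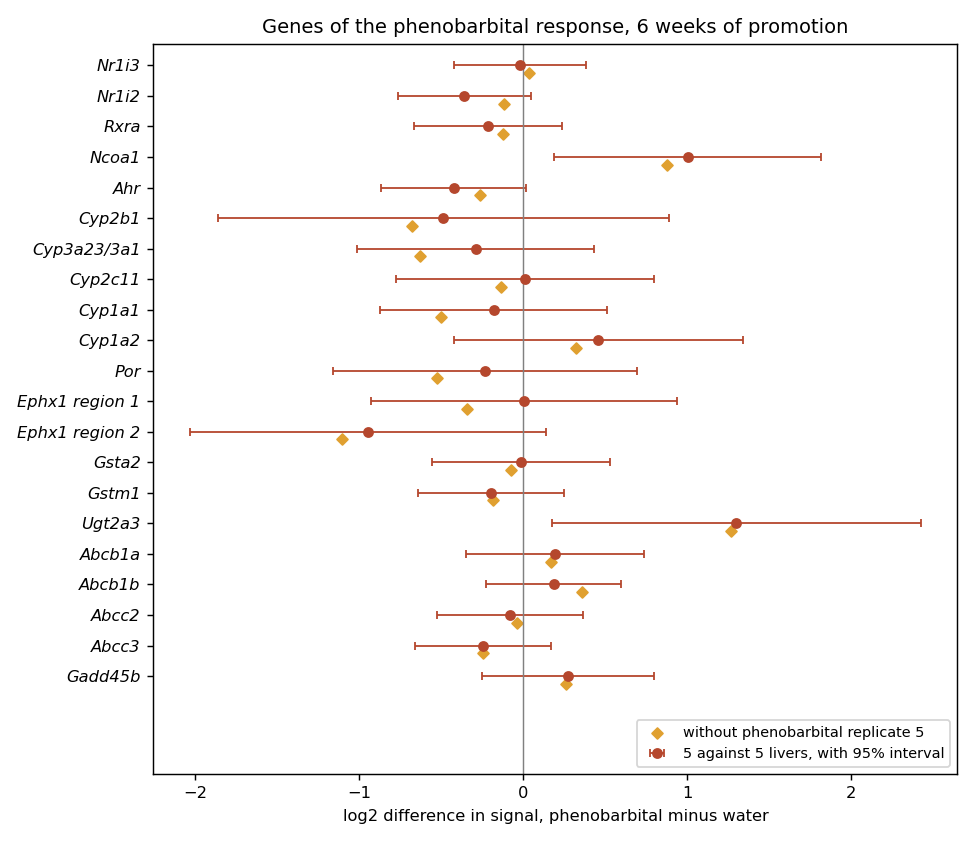
Log2 difference in signal, phenobarbital minus water, for 21 regions of 20 genes of the phenobarbital response, with 95% intervals over 5 against 5 livers (circles) and the value without phenobarbital replicate 5 (diamonds). Ncoa1, Ahr and Ugt2a3 were not among the fixed genes and were named for a small p in their gene lists in these same data. Intervals of Ncoa1 and Ugt2a3 lie off 0 before adjustment, which that choice favours. Those of Cyp2b1 and both Ephx1 regions span more than those of Nr1i3 or Abcc2.

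Among the other enzymes of the response no region passed the test either. Por, the reductase that supplies electrons to every microsomal P450, had 2.97, 16.6, 21.3, 9.22 and 29.8 in phenobarbital livers against 11.2, 26.9, 8.01, 20.8 and 15.4 in water livers (difference -0.23, interval -1.16 to 0.69, and -0.52 without replicate 5). Ephx1, the microsomal epoxide hydrolase, has several start regions. The first had a difference of 0.01 (-0.93 to 0.94), and -0.34 without replicate 5. The second had 4.96, 15.5, 5.07, 5.76 and 12.6 with phenobarbital against 19.4, 21.3, 15.02, 17.3 and 9.90 with water, with 3 of 5 phenobarbital livers below every water liver (difference -0.95, unadjusted p = 0.0858). Of 33 tested genes for other phase I enzymes 17 were positive and 16 negative, with a median of 0.01.

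Conjugating enzymes of phase II had a median of -0.09, with 17 of 56 tested genes positive (21 of 56 and -0.08 without replicate 5). Gsta2 and Gstm1, glutathione transferases that phenobarbital induces, had differences of -0.01 (-0.56 to 0.53) and -0.20 (-0.64 to 0.25). Ugt2a3, a glucuronosyltransferase, had 13.9, 16.6, 12.2, 3.46 and 11.4 with phenobarbital against 2.04, 14.6, 0, 5.78 and 5.50 with water (difference 1.30, limma unadjusted p = 0.0242). It was the only gene of the 56 with an unadjusted p under 0.05, a share of 1.79% against 3.17% of all regions. Without water replicate 3 its difference was 0.75. Ugt2b1, an inducible glucuronosyltransferase, was below the filter, at 1.98, 2.38, 2.03, 2.31 and 8.01 with phenobarbital against 4.08, 4.49, 1.001, 3.47 and 1.10 with water.

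Among 39 tested drug and bile acid transporters 13 were positive, with a median of -0.09, and without replicate 5 they were 21, with a median of 0.01. The multidrug exporters Abcb1a and Abcb1b had differences of 0.20 (-0.35 to 0.74) and 0.19 (-0.23 to 0.60), the second 0.36 without replicate 5. Abcc2 and Abcc3, exporters of conjugates into bile and blood, had -0.08 (-0.52 to 0.36) and -0.25 (-0.66 to 0.17). Ostalpha (RefSeq symbol Slc51a), a bile acid exporter subunit, had 118, 87.97, 82.1, 103 and 62.9 with phenobarbital against 133, 135, 105, 104 and 133 with water (difference -0.44, unadjusted p = 0.0273, and -0.32 with unadjusted p = 0.117 without replicate 5). Gadd45b, a stress gene that CAR activates in mouse liver, was at 42.6, 54.7, 85.2, 61.1 and 61.8 with phenobarbital against 44.9, 48.3, 46.1, 56.7 and 50.6 with water (difference 0.27, interval -0.25 to 0.80).

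Across the whole table the 2 groups did not overlap in 96 regions (0.600%). In 64 of them every phenobarbital liver lay above every water liver (0.400%), and in 32 every phenobarbital liver lay below (0.200%). Phenobarbital replicate 5 was the highest of its group in 44 of the 64 and the lowest in 16 of the 32. The regions described next were picked by the size of the difference or by the smallest unadjusted p, so their values describe the selection and none passed adjustment.

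Afg3l1, which encodes a relative of the mitochondrial AAA protease, had the smallest p of all (chr19:53789761-53795386, plus strand). Its signal was 14.9, 20.2, 16.2, 10.4 and 25.2 in phenobarbital livers and 0, 0, 4.01, 6.94 and 4.40 in water livers. The log2 difference was 2.59 ± 0.55 (SE; limma adjusted p = 0.184), and 2.45 without replicate 5. Within the 3 blocks of library numbers the differences were 4.18, 1.15 and 2.28, where the third block holds 1 liver a side. The water values amount to a handful of reads or none.

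A region that the files name Hoxa10, and whose transcript RefSeq lists under Hoxa11, had the largest positive difference (chr4:80544954-80550579, minus strand). These are neighbouring genes of the A cluster of homeobox genes, which set position along the body axis. It had 7.93, 16.6, 23.3, 10.4 and 77.8 with phenobarbital against 0, 7.86, 2.003, 0 and 4.40 with water, with replicate 5 far above the rest. The difference was 2.90 ± 0.67 (adjusted p = 0.422), and 2.41 without replicate 5. The window overlaps that of RGD1564419.

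Nefm, a neurofilament subunit, had 9.91, 9.51, 7.10, 11.5 and 36.6 with phenobarbital against 0, 1.12, 2.003, 2.31 and 2.20 with water (chr15:47702216-47707841, minus strand; difference 2.53, and 2.16 without replicate 5). Ier2, an immediate-early gene, had 6.94, 8.32, 8.11, 10.4 and 54.9 with phenobarbital against 6.13, 4.49, 0, 5.78 and 0 with water (chr19:25154776-25160401, plus strand; 2.13 and 1.61). In both, replicate 5 was several times the other phenobarbital livers, yet those 4 also lay above every water liver, for Ier2 by less than 1 unit of signal. Gal3st3, a sulfotransferase that overlaps Sf3b2, had a difference of 1.94 (1.73 without replicate 5) and Vom1r101, a pheromone receptor gene, of 2.05 (1.93). All of these regions had water livers under 10, so a few reads decide their size.

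**Figure D3:**
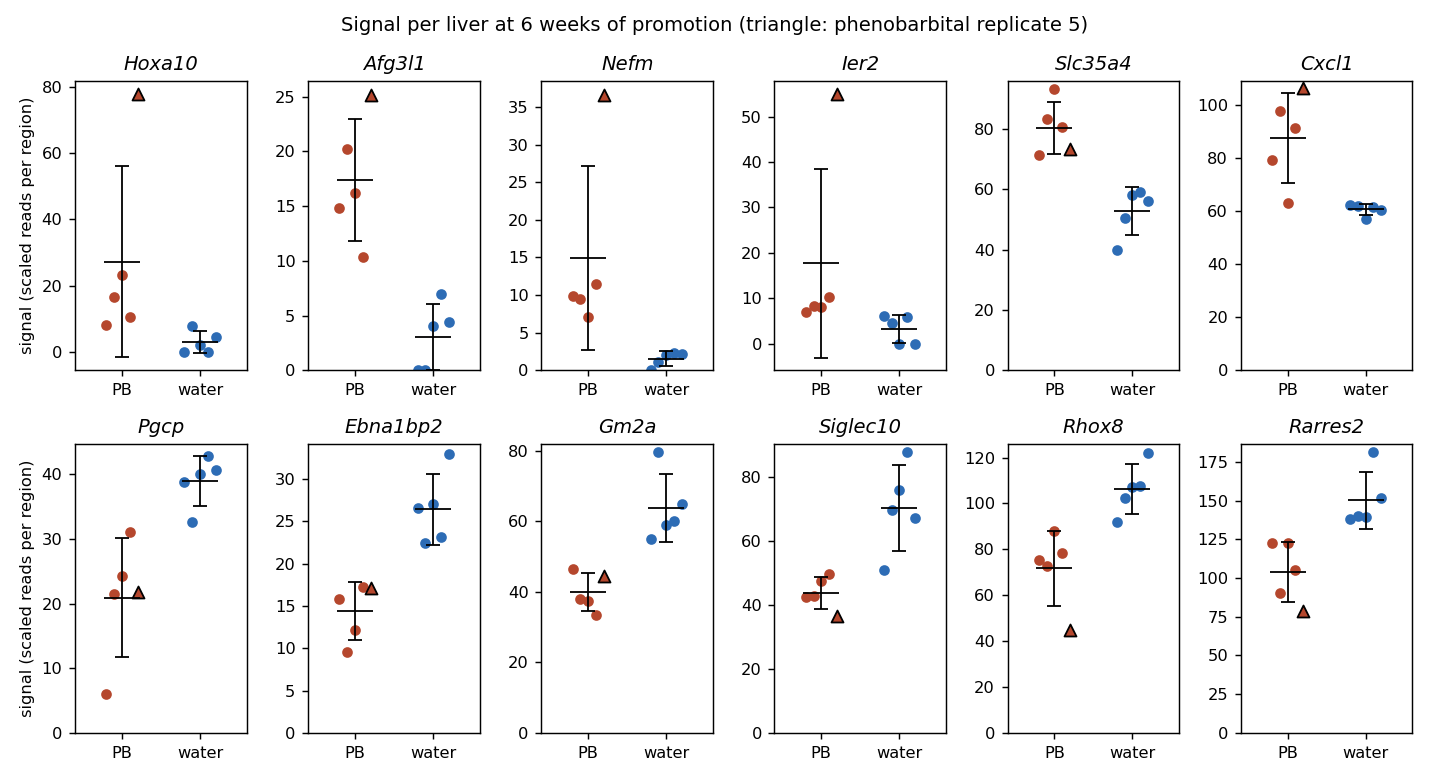
Deposited signal of 12 regions in each liver, phenobarbital (PB) left and water right, with the mean and SD of 5 livers; triangles mark phenobarbital replicate 5. In each region shown the groups do not overlap, with phenobarbital above in the upper row and below in the lower row.

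At regions with more reads the differences were smaller. Slc35a4, a solute carrier gene whose window overlaps Apbb3 and Sra1, had 71.4, 83.2, 93.3, 80.7 and 73.2 in phenobarbital livers and 39.8, 50.5, 58.1, 58.98 and 56.1 in water livers. The groups did not overlap, and the difference was 0.61 ± 0.21 (unadjusted p = 0.00471). Cxcl1, a neutrophil-attracting chemokine, had 79.3, 97.5, 62.8, 91.1 and 106 with phenobarbital against 62.3, 61.8, 57.1, 61.3 and 60.5 with water, with water livers packed within 57.1 to 62.3 (difference 0.50, unadjusted p = 0.011). Miip, an inhibitor of cell migration, had 84.3, 82.02, 126, 71.5 and 62.9 with phenobarbital against 36.8, 53.9, 34.04, 80.96 and 46.2 with water (difference 0.78), and 1 water liver lay inside the phenobarbital range. Clic4, a chloride channel protein, Cnnm1, of the metal transporter family, and Cds1, a phospholipid synthesis enzyme, had differences of 0.67, 0.66 and 0.68. RGD1310358 (RefSeq symbol Uri1) and Prickle1, a planar polarity gene, had 0.57 and 0.52. Without replicate 5 these 8 differences lay between 0.42 and 0.88.

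On the lower side, Gm2a, the activator protein of ganglioside breakdown, had 46.6, 38.04, 37.5, 33.4 and 44.6 with phenobarbital against 55.1, 79.7, 59.1, 60.1 and 64.9 with water (chr10:40497675-40503300, plus strand). Its difference was -0.66 ± 0.22 (unadjusted p = 0.00465), -0.70 without replicate 5, and -0.64, -0.74 and -0.53 in the 3 library blocks. Siglec10, a sialic acid receptor of leukocytes, had 42.6, 42.8, 47.6, 49.6 and 36.6 with phenobarbital against 51.1, 69.6, 76.1, 87.9 and 67.1 with water (chr1:93780806-93786431, plus strand; difference -0.66, and -0.47, -0.74 and -0.86 by block). The phenobarbital livers lay close together in both regions, and the Siglec10 difference without replicate 5 was -0.59. Pgcp (RefSeq symbol Cpq), a carboxypeptidase, had 5.95, 21.4, 24.3, 31.1 and 21.7 with phenobarbital against 38.8, 32.6, 40.1, 42.8 and 40.7 with water (chr7:68425569-68431194, plus strand; difference -1.02), with replicate 1 lowest and a difference of -0.65 without it. Ebna1bp2, a ribosome assembly factor, had -0.85, Zfp191 (RefSeq symbol Zfp24), a zinc finger gene, -0.71, and Rhox8, a homeobox gene of the reproductive cluster on X, -0.59 (-0.43 without replicate 5).

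Rarres2, which encodes the liver-secreted chemoattractant chemerin, had 123, 90.3, 123, 105 and 78.96 with phenobarbital and 138, 140.4, 139, 182 and 152 with water, without overlap (difference -0.54, unadjusted p = 0.00607). P2ry2, a nucleotide receptor, had 82.3, 41.6, 41.6, 76.1 and 43.5 with phenobarbital against 97.01, 86.5, 85.1, 120.3 and 69.3 with water (difference -0.72), with 2 phenobarbital livers inside the water range and the other 3 below it. The first region of Ptprr, a receptor phosphatase, had -0.62, and its other start region is not given here. Mmgt2 had -0.58 and LOC500118 (RefSeq symbol Fam221a) -0.92. Ptpmt1, a mitochondrial phosphatase, had -0.67, Apitd1 (RefSeq symbol Cenps), a centromere protein, -0.57 and Ift81, a ciliary transport protein, -0.54. Only 5 of 16008 regions had an adjusted p of 0.737 or less: Afg3l1, Hoxa10, Hoxd12, Pwwp2b and RGD1359380, while every other tested region was at 1.00 when rounded. The last 2 were outside the rule for naming and were chosen after their values were seen. Pwwp2b, a chromatin reader, had 70.4, 52.3, 48.7, 56.5 and 76.7 with phenobarbital against 31.7, 15.7, 23.03, 38.2 and 44.01 with water (difference 1.04), and RGD1359380 (RefSeq symbol Timmdc1), a complex I assembly factor, had 29.7, 32.1, 35.5, 23.1 and 57.2 with phenobarbital against 5.11, 13.5, 26.03, 10.4 and 14.3 with water (difference 1.39).

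Homeobox genes of the Hox clusters had the highest median of the 23 gene lists, and it was lower without phenobarbital replicate 5. Of 23 tested genes 19 had a positive difference, with a median of 0.34, and without replicate 5 they were 14, with a median of 0.17. The median signal of these genes was 16.6 to 18.2 in the other 4 phenobarbital livers and 53.8 in replicate 5, against 15.04 to 19.1 in the water livers. At unadjusted p under 0.05, 5 members were higher and 0 were lower, and without replicate 5 there were 4 and 0, against 2.13% of all regions higher and 1.56% without replicate 5. Hoxa10 is one of them. Hoxd12 had 8.92, 13.1, 18.2, 43.8 and 49.2 with phenobarbital against 5.11, 2.25, 13.02, 4.63 and 4.40 with water (difference 1.90 ± 0.48, adjusted p = 0.737; 1.61 without replicate 5). Replicates 4 and 5 were the highest there, and replicate 1 lay inside the water range. Hoxd13, Hoxc12 and Hoxc8 had differences of 1.81, 1.73 and 0.76, and without replicate 5 of 1.39, 1.48 and 0.40. Hoxc8 then had an unadjusted p of 0.289, and the Hoxc12 difference was 1.04 without water replicate 4.

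Other developmental transcription factors had the next highest median with all 10 livers, whereas without replicate 5 the medians of endothelial and macrophage markers, 0.16 and 0.15, were higher. Of 137 tested genes 96 were positive (median 0.23), and 87 without replicate 5 (median 0.15). Their median signal was 52.6 in replicate 5, 21.4 to 27.8 in the other phenobarbital livers and 21.3 to 25.3 in the water livers. In all, 11 were higher at unadjusted p under 0.05 and 0 were lower (8.03% and 0, against 2.13% and 1.04% of all regions). Without replicate 5 there were 3 higher and 0 lower (2.19%, against 1.56% of all regions). Wt1, a regulator of kidney and mesothelium that is also counted among tumour suppressors, had 39.7, 35.7, 37.5, 43.8 and 80.1 with phenobarbital against 30.6, 16.8, 26.03, 15.04 and 29.7 with water (difference 0.96, unadjusted p = 0.0173, and 0.76 with unadjusted p = 0.0704 without replicate 5), with no overlap. Lhx1 and Otx1, patterning genes of the embryo, had 1.56 and 0.64 (1.17 and 0.52 without replicate 5).

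**Figure D4:**
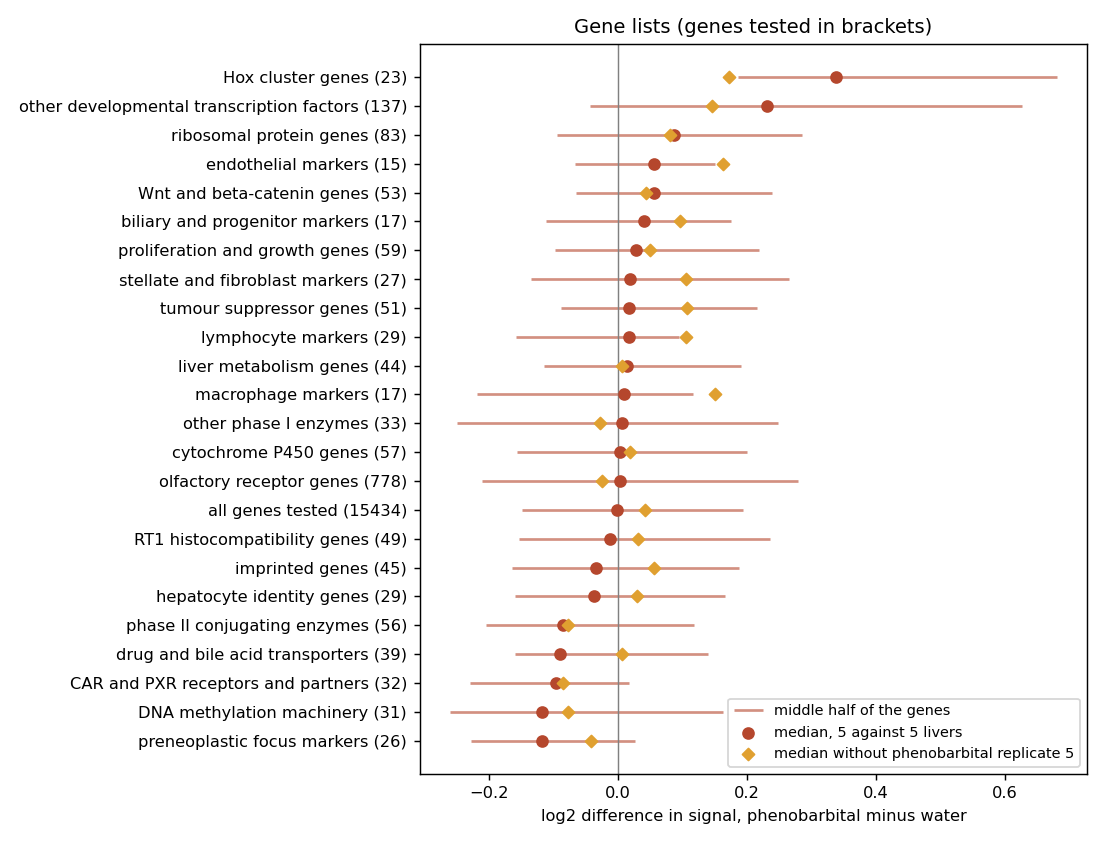
Median log2 difference in signal, phenobarbital minus water, for 23 gene lists and all tested genes, with 1 value per gene. Circles give the median over 5 against 5 livers, lines run from the 25th to the 75th percentile of the genes, and diamonds give the median without phenobarbital replicate 5; the lists of Hox cluster genes and other developmental transcription factors are at 0.34 and 0.23, and all tested genes at 0.00.

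Growth genes and tumour suppressors had medians near that of all genes with all 10 livers. Of 59 tested proliferation and growth genes 32 were positive (median 0.03), of 51 tumour suppressors 27 (median 0.02) and of 53 Wnt and beta-catenin genes 32 (median 0.06). Without replicate 5 the counts were 36, 34 and 33, with medians of 0.05, 0.11 and 0.04, against 0.04 for all genes. Tgfb1, a cytokine that restrains hepatocyte growth, had 175, 182, 139, 190.2 and 80.1 in phenobarbital livers against 79.7, 95.4, 86.1, 131 and 119 in water livers. The other 4 phenobarbital livers lay above every water liver while replicate 5 was at the low end, so the difference of 0.54 (unadjusted p = 0.0116) became 0.76 without it (unadjusted p = 0.000412). Myc, the growth-promoting transcription factor, had 16.9, 15.5, 12.2, 29.97 and 33.2 with phenobarbital against 11.2, 11.2, 4.01, 10.4 and 9.90 with water with no overlap (difference 1.09, unadjusted p = 0.0194, and 0.92 with unadjusted p = 0.0595 without replicate 5). Gsk3b, the kinase that marks beta-catenin for destruction, had 36.7, 45.2, 14.2, 19.6 and 61.8 with phenobarbital against 25.5, 4.49, 10.01, 13.9 and 8.80 with water (difference 1.44, and 1.20 without replicate 5). Socs3 and Socs1, inhibitors of cytokine signalling, had -0.42 and -0.35 (-0.36 and -0.16 without replicate 5), and Cdkn2a, the p16 locus, was below the filter at 1.98, 0, 0, 2.31 and 11.4 with phenobarbital against 6.13, 0, 0, 2.31 and 0 with water. Preneoplastic focus markers had 8 of 26 genes positive (median -0.12; 12 and -0.04 without replicate 5). Gstp1, the placental glutathione transferase that marks rat liver foci, had 23.8, 27.3, 36.5, 32.3 and 34.3 with phenobarbital against 25.5, 22.5, 38.05, 25.4 and 23.1 with water (difference 0.20, interval -0.42 to 0.82), and Ggt1 was not analysed here.

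Imprinted genes, which are expressed mainly from the copy of a single parent, had 19 of 45 positive (median -0.03), and 24 without replicate 5 (median 0.06). H19, whose upstream region is methylated on the paternal copy, was at 499, 506, 461, 624 and 299 with phenobarbital against 486, 470.5, 489.6, 577 and 481 with water (difference -0.10, interval -0.58 to 0.38, and 0.06 without replicate 5). Its neighbour Igf2 had 0.50 at the first of 3 start regions and 1.08 at the second, where replicate 5 had 62.9 and the other phenobarbital livers had 7.13 to 16.1, against 3.06 to 10.01 in water livers. Without replicate 5 these differences were 0.24 and 0.59. Dlk1 had 0.31 (-0.20 to 0.81), Kcnq1 0.86 (unadjusted p = 0.0196) and Dio3 1.08 (unadjusted p = 0.0282), the last with a water liver at 0. Without that liver, water replicate 2, the Dio3 difference was 0.066 and that of Kcnq1 0.52. Meg3 was not analysed here.

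The DNA methylation machinery had 10 of 31 genes positive (median -0.12; 14 and -0.08 without replicate 5). Dnmt1, the maintenance methyltransferase, had 104, 60.6, 64.9, 86.5 and 62.9 with phenobarbital against 72.5, 65.1, 92.1, 105 and 92.4 with water (difference -0.18, interval -0.61 to 0.25). Uhrf1, which recruits it to replicating DNA, had 103, 78.5, 78.1, 89.9 and 52.6 with phenobarbital and 111, 99.9, 117, 124 and 116 with water (difference -0.52, unadjusted p = 0.0184; -0.38 with unadjusted p = 0.0915 without replicate 5). The second region of Hells, a chromatin remodeller needed for methylation, had -0.52, and its first region is not given here. Mbd1, a methyl-CpG reader, had 0.85 (0.35 without water replicate 1). At unadjusted p under 0.05, 3 genes of this list were lower and 1 was higher (9.68% and 3.23%, against 1.04% and 2.13% of all regions). Without replicate 5 there were 1 lower and 1 higher, against 1.06% and 1.56% of all regions. Tbx3, a liver and limb transcription factor, was at 234, 177, 149, 218 and 91.5 with phenobarbital against 141, 159, 182, 245 and 244 with water (difference -0.20, interval -0.61 to 0.21, and 0.01 without replicate 5).

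Genes that mark the cell types of liver gave medians between -0.04 and 0.06: hepatocyte identity genes -0.04 (12 of 29 positive), macrophage markers 0.01 (9 of 17), lymphocyte markers 0.02 (17 of 29), stellate and fibroblast markers 0.02 (17 of 27), biliary and progenitor markers 0.04 (10 of 17) and endothelial markers 0.06 (10 of 15). Without replicate 5, in the same order, they were 0.03 (18 positive), 0.15 (13), 0.11 (19), 0.10 (16), 0.10 (10) and 0.16 (13). With all 10 livers, at unadjusted p under 0.05 only Col1a1, a fibre collagen (difference 0.65), and Timp2, a protease inhibitor (-0.47), appeared among these genes, in the stellate and fibroblast list, against 3.17% of all regions. The Col1a1 difference was 0.32 without water replicate 2, and Timp2 had -0.35 (limma unadjusted p = 0.107) without phenobarbital replicate 5. Named markers that missed that threshold included Flt1, a VEGF receptor (0.54), Epcam, of bile duct epithelium (-0.38), and Prox1, a regulator of hepatocyte fate (1.07). Epcam and Prox1 ran against most of their cell-type lists with all 10 livers. Of 17 biliary and progenitor markers 10 were positive, and of 29 hepatocyte identity genes 17 were negative. Prox1 had 1.12 to 13.02 in water livers, an interval of -0.30 to 2.44, and a difference of 0.84 without replicate 5. Signal near a marker gene is methylation, not expression, so these values do not measure how many cells of a type were present.

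Liver metabolism genes were split 22 to 22 (median 0.01), and Cpt2, of mitochondrial fatty acid oxidation, had -0.35. Ribosomal protein genes had 49 of 83 positive (median 0.09). RT1 histocompatibility genes had 22 of 49 (median -0.01). The 778 tested olfactory receptor genes, which liver does not use, were split 394 to 384 (median 0.00), with Olr422 (RefSeq symbol Or12k7b) at 21.8, 22.6, 33.5, 18.4 and 27.5 with phenobarbital and 11.2, 10.1, 9.01, 3.47 and 6.60 with water (difference 1.56).

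The same contrast after 1 week of promotion, in the liver removed at hepatectomy, had 0 of 15809 regions past the test (0.00%) and 993 at unadjusted p under 0.05 (6.28%). There the evenly read library was water replicate 5, and without it 542 regions had such a p (3.43%). Replicates 1 and 2 of both groups at that time carry scaling totals repeated in other libraries of the series, and whether these totals are their own was not tested. The difference at 6 weeks minus the difference at 1 week passed in 0 of 16385 regions (0.00%), with 1087 at unadjusted p under 0.05 (6.63%).

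The smallest adjusted p of that comparison belonged to Samd12, chosen after its values were seen. At 6 weeks Samd12 had 34.7, 26.2, 16.2, 13.8 and 41.2 with phenobarbital against 57.2, 48.3, 31.04, 46.3 and 61.6 with water. At 1 week it averaged 52.8 ± 14.8 with phenobarbital and 28.5 ± 7.004 with water (SD, n = 5 each). The log2 difference was 0.86 at 1 week and -0.94 at 6 weeks, and their gap was -1.80 (limma adjusted p = 0.0812). This limma adjusted p was 0.109 without phenobarbital replicate 5 and 0.361 without water replicate 5, each left out at both times.

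Afg3l1 averaged 7.71 ± 2.97 with phenobarbital and 16.1 ± 15.2 with water at 1 week, and 17.4 ± 5.60 with phenobarbital and 3.07 ± 3.02 with water at 6 weeks (SD, n = 5 each). The gap between the times was 3.27 (limma adjusted p = 0.134, and 0.593 without phenobarbital replicate 5 at both times). Gal3st3 had differences of -1.84 at 1 week and 1.94 at 6 weeks, and Wt1 of -1.38 and 0.96, with the opposite sign at the 2 times (adjusted p of the gap 0.134 and 0.239). Without water replicate 5 the values at 1 week were -1.65 and -1.18. Without phenobarbital replicate 5 those at 6 weeks were 1.73 and 0.76, and the signs stayed opposite. LOC500118 was negative at both times, at -1.07 and -0.92. Gm2a and Siglec10 were at -0.02 and 0.03 at 1 week. In the lowest bin of mean signal the median log2 difference also had opposite signs, at -0.36 at 1 week and 0.34 at 6 weeks. Without the evenly read library of each time, water replicate 5 at 1 week and phenobarbital replicate 5 at 6 weeks, these medians were -0.06 and 0.01.

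**Figure D5:**
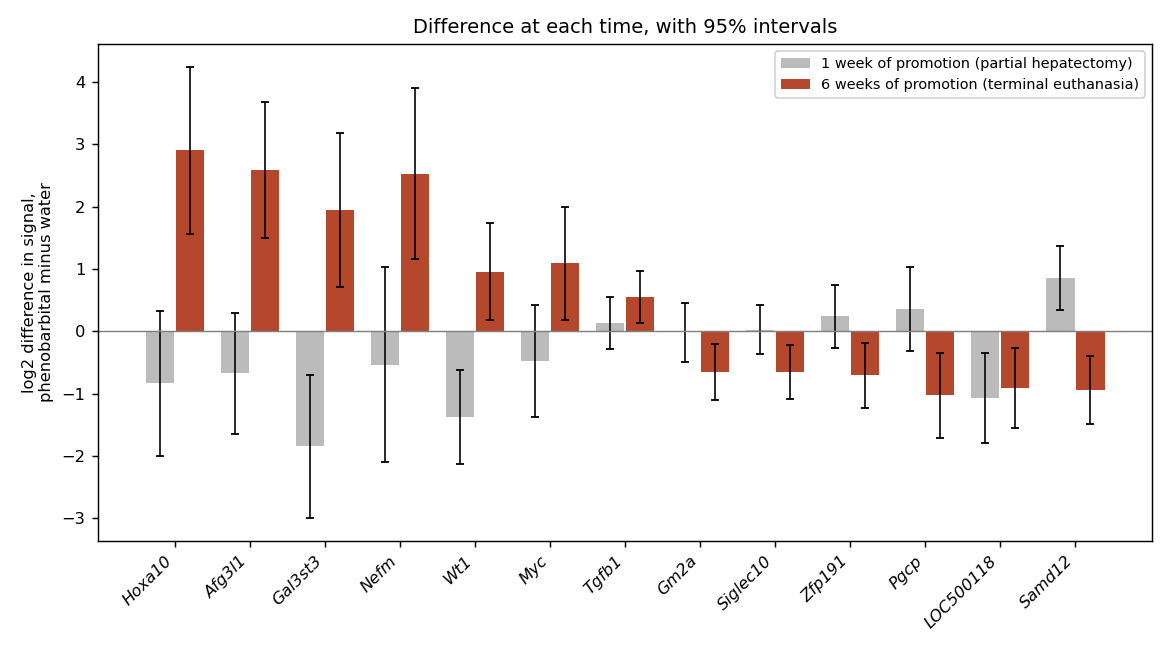
Log2 difference in signal, phenobarbital minus water, at 13 regions after 1 week (grey) and 6 weeks (red) of promotion, with 95% intervals, 5 against 5 livers at each time. Tgfb1 is positive and Gm2a and LOC500118 are negative at both times, and all other regions shown have opposite signs at the 2 times.

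Phenobarbital was also given to 5 groups that had received a compound before promotion (labelled DEN at 2 doses, TAA, MP and APAP), called compound groups here. They share the phenobarbital group's promotion but no library with it. Their group means at 6 weeks, given side by side and without a test, were 8.21 to 15.3 for Afg3l1, where the vehicle and phenobarbital group averaged 17.4 ± 5.60 and the water group 3.07 ± 3.02 (SD, n = 5 each). For Hoxa10 the means of compound groups were 8.29 to 19.9, with 27.2 ± 28.9 in the vehicle and phenobarbital group and 2.85 ± 3.33 with water. Pwwp2b had 46.9 to 56.2, with 60.9 ± 12.1 in the vehicle and phenobarbital group and 30.5 ± 11.4 with water. Gm2a had 53.3 to 61.5, with 40.04 ± 5.43 in the vehicle and phenobarbital group and 63.8 ± 9.56 in the water group, and Siglec10 had 53.5 to 74.7, with 43.9 ± 5.05 after vehicle and phenobarbital and 70.4 ± 13.5 with water. For Gm2a, the means of compound groups all lay nearer to the water group, and for Pwwp2b nearer to the phenobarbital group. Replicate 5 of every compound group had a median signal over regions of 64.01 to 70.6. That of the vehicle and phenobarbital livers was 50.6 to 54.2, and of the water livers 49.4 to 53.2. The scaling totals of those replicates recur in 1-week libraries, and every compound group except the lower-dose DEN group held an evenly read library. Their part in these means was not tested.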

How the data were processed

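Methylated DNA from rat liver was enriched with the MethylMiner kit and sequenced on a SOLiD 4 instrument, per the labels' protocols. The authors deposited a table of signal per region, which is a scaled read number. In each library the values are whole multiples of 1 step, and 0.01 stands for no read. That 0.01 is printed as 0 here and was kept in the fits. The sources used here name no aligner, genome build or meaning of the scaling total.

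Signal was analysed as log2(signal + 1) with limma 3.58.1 in R 4.3.3, with 1 mean per group over all 35 terminal libraries and a trended prior, and p-values were adjusted by the Benjamini-Hochberg method over all tested regions. Regions with a signal of at least 10 in at least 5 of the 35 libraries were tested, which left 16008 of 17174. The other groups entered only for the estimate of spread and the values set side by side. Library-level values were compared by exact two-sided permutation tests. p-values measure the spread between libraries, and reads are not independent molecules. In limma that spread also holds the evenly read libraries and replicate 5 of the compound groups. With the 10 libraries of the contrast alone, 0 regions passed limma and 556 had an unadjusted p under 0.05.

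Genes were named by rule: the smallest p and the largest non-overlapping differences in each direction, the smallest p in each gene list, and fixed genes of the phenobarbital response. The genes and lists were chosen with earlier results of these data known. Names were matched to RefSeq for 15826 of 17052 transcripts. Deviations of phenobarbital and water livers with the same number at 6 weeks correlated at 0.02, 0.02, -0.01, 0.03 and 0.10. Across the 2 times, same-number correlations were 0.01 to 0.29 for phenobarbital and 0.03 to 0.13 for water. Not every pair was over 0.1, so the numbers were not taken to pair samples. The fit was tested on simulated data. A few regions that the rule names are not reported here.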

Additional observations from a re-analysis of the deposited data

Results flagged for a closer look

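Of 192 groups of 5 livers checked, 17 had 1 liver whose gap to the others passed the critical share of 0.71 of the range, where chance flags about 1 group in 20. In the phenobarbital group all 9 were replicate 5. That liver had the highest signal at Hoxa10 (77.8), Nefm (36.6), Ier2 (54.9), Igf2 region 1 (57.2), Igf2 region 2 (62.9), Hoxd13 (59.5), Hoxc8 (74.4) and Wt1 (80.1), and the lowest at Nr1i2 (60.6). The even spread of reads in that library is described above, and its part in these values was not tested.

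In the water group 8 were flagged. Replicate 4 was highest at Cds1 (99.5), LOC500118 (145) and H19 (577). Replicate 3 was highest at Gstp1 (38.05) and Hoxd12 (13.02), lowest at Myc (4.01), and had the lowest share of regions with a signal under 10, at 16.3%. Replicate 2 had a Dio3 signal of 0.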

How the results depend on the processing

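Leaving out 1 liver at a time gave 0 to 1 regions past the test between phenobarbital and water; the 1 was Afg3l1 without water replicate 4 (limma adjusted p = 0.0365). For the difference between 6 weeks and 1 week, a replicate number of a group was left out at both times together. The range was then 0 to 3 (1 without phenobarbital replicate 1, 3 without water replicate 3), and quantile normalization gave 1, Samd12. At unadjusted p under 0.05 the 507 regions became 961 after quantile normalization (440 higher, 521 lower), 758 with library block as a covariate and 761 after scaling to equal total signal (426 higher, 335 lower). A stricter filter gave 206 higher and 161 lower, against 341 and 166. With a replicate block, 0 regions passed and 645 had such a p, and only replicates 4 and 5 correlated best with their own number; between the times the block left 0 regions and 1299 at such a p, against 1087, and replicates 1, 3 and 5 of phenobarbital and 1, 2, 3 and 5 of water correlated best with their own number. Of 91 named regions, 81 kept their sign in every setting. Many were named for a small p or a large difference in these same data, which favours a kept sign. The 10 with a reversal all belong to the fixed genes. Signs reversed at Cyp2c11 (-0.00181 with a pseudocount of 10, -0.21 after quantile normalization, -0.13 without the 5 evenly read libraries and likewise with 10 libraries without replicate 5), Ephx1 region 1 (-0.054 after quantile normalization, -0.34 in those last 2 settings), Nr1i3 (0.0064 after quantile normalization, 0.0037 at equal total signal, 0.034 in the last 2), Gsta2 (0.0071 at equal total signal), H19 (0.024 after quantile normalization, 0.056 in the last 2) and Tbx3 (0.014 in the last 2). Without 1 liver each, the ranges were -0.63 to 0.13 for Cyp3a23/3a1, -0.13 to 0.17 for Cyp2c11, -0.50 to 0.012 for Cyp1a1, -0.52 to 0.21 for Por, -0.34 to 0.48 for Ephx1 region 1, -0.073 to 0.034 for Nr1i3, -0.21 to 0.032 for Abcc2, -0.074 to 0.080 for Gsta2, -0.21 to 0.056 for H19, -0.32 to 0.014 for Tbx3 and -0.0848 to 0.0457 M for region reads. The cause was not tested. The settings of equal total signal and of evenly read libraries were chosen after seeing the data. Count models were not run. Intervals were widest in the lowest signal bins.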
